A study of Mus musculus with 4 samples.

Results

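The genes described here are 10 components of the switch that lets a dividing cell leave the G1 phase: the D-type cyclins Ccnd1, Ccnd2 and Ccnd3, their kinases Cdk4 and Cdk6, the kinase inhibitors Cdkn1b, Cdkn2c and Cdkn2d, and the pocket proteins Rb1 and Rbl1. They were chosen by symbol from the 24982 genes of a count table of mouse forebrain RNA at E10.5, an embryonic day at which the forebrain wall is mostly dividing progenitors and the earliest neurons are appearing. All 10 were found and all 10 passed the filter on low counts, which kept 14235 genes. The knockout genotype was Sox1 cre+/-; Chd7 f/f, the conditional knockout (cKO), with 2 libraries, in which Cre recombinase, named for the neural gene Sox1, acts on both floxed copies of the chromatin remodeller gene Chd7. The control genotype was Chd7 +/f, also with 2 libraries, which carries 1 floxed allele and for which the labels name no Cre, so an effect of the Cre allele and one of Chd7 loss cannot be told apart. Both groups were micro-dissected forebrain, and no label says if 1 embryo or several went into a library, so the p-values below measure only the spread between these libraries.

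In background terms, a D cyclin binds Cdk4 or Cdk6, and the active pair phosphorylates the retinoblastoma protein and its relatives, which otherwise hold E2F transcription factors in check. Released E2F factors switch on the genes of DNA replication. The INK4 inhibitors, which include the products of Cdkn2c and Cdkn2d, bind Cdk4 and Cdk6 directly, while p27, the product of Cdkn1b, binds cyclin-kinase complexes. In the embryonic brain D cyclins are made by dividing progenitors and p27 accumulates as cells leave the cycle, and mitogenic signals such as Wnt and FGF are known to act on D cyclin transcription.

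The targeted gene was low in both cKO libraries. Chd7 measured 136 and 132 CPM (read-pair counts relative to the library total after TMM scaling) in cKO libraries 1 and 2, against 340 and 345 CPM in control libraries 1 and 2. Totals ran from 16581252 to 17096522 counts per library. The forebrain progenitor genes Nes and Sox2 were abundant in all 4 libraries, at 887 and 1002 CPM (Nes) in cKO against 1014 and 907 CPM in control libraries.

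In the cKO forebrain 3 of the 10 genes rose and 0 fell. The test was the quasi-likelihood test of edgeR, with a threshold of 0.05 for p-values adjusted over all genes tested. Those that rose were the kinase gene Cdk6, by 1.75-fold, and the cyclin genes Ccnd2, by 1.5-fold, and Ccnd1, by 1.17-fold. Over all 14235 genes tested, 3.7% were called, 1.57% as higher and 2.13% as lower. At an unadjusted p under 0.05 the numbers were 3 higher and 1 lower, and the DESeq2 Wald test and limma-voom each gave 3 higher and 0 lower. In the authors' deposited table the same 3 genes had an adjusted p under 0.05, all as higher, where 1.99% of its tested genes were higher and 2.49% lower, with log2 fold changes of 0.81 for Cdk6 (adjusted p = 3.7e-09), 0.59 for Ccnd2 (0.0479) and 0.22 for Ccnd1 (0.00455). The median log2 fold change of the 10 genes was −0.01, beside −0.0003 for all genes tested, with 4 genes above 0 and 6 below. Both cKO libraries lay above both control libraries for 4 of the 10 genes and below both for 2, against 24.3% and 24% of all genes tested.

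**Figure D1:**
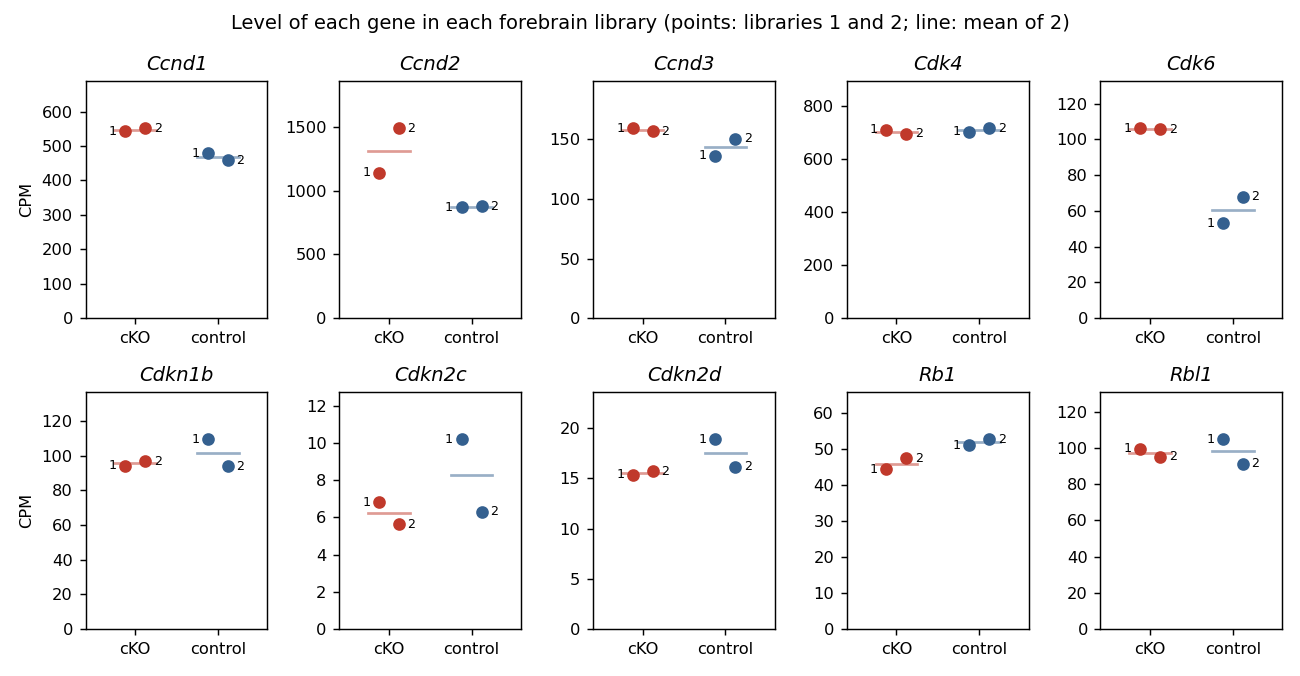
Level of each of the 10 genes in CPM (y axes, each starting at 0) in the 2 cKO and the 2 control libraries (x axes), with points numbered by replicate and a line at the mean of 2. The groups stand apart for Ccnd1, Ccnd2, Ccnd3 and Cdk6, with cKO above, and for Cdkn2d and Rb1, with cKO below, and they overlap for the other 4 genes.

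Among the D cyclins the largest difference was that of Ccnd2 (GRCm38 chromosome 6, 127125162 to 127152188), the D cyclin of many neural progenitors. It measured 1138 and 1486 CPM in cKO libraries 1 and 2, against 867 and 879 CPM in control libraries 1 and 2. Both cKO libraries were above both controls, and the gap between the cKO libraries was wider than that between the controls. The log2 fold change was 0.59 (SE 0.11, 95% interval 0.34 to 0.84, edgeR adjusted p = 0.0319). It was 0.77 without cKO replicate 1 and 0.38 without cKO replicate 2, called in both cases, whereas leaving out control replicate 1 ended the call (edgeR adjusted p = 0.0779). The 2 cKO libraries also differed in markers of neighbouring tissue. The 6 ventral midline genes had a summed level of 14.2 and 75.5 CPM in cKO libraries 1 and 2, against 27.1 and 79.8 CPM in the controls, and 16 mesenchyme and neural crest genes 1120 and 724 CPM against 1070 and 1221 CPM. Whether these had a part in the level of Ccnd2 was not tested.

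Ccnd1 (chromosome 7, 144929931 to 144939831), a D cyclin whose transcription Wnt and growth factor signals are known to raise, measured 542 and 551 CPM in cKO libraries, against 479 and 459 CPM in control libraries. The difference was small but the libraries of each group lay close together, so that the groups did not overlap. The log2 fold change was 0.22 (SE 0.04, 95% interval 0.12 to 0.32, edgeR adjusted p = 0.0406). Its call sat near the threshold: it was lost when any 1 of the 4 libraries was left out (adjusted p = 0.0713 to 0.176, log2 fold change 0.19 to 0.25) and in the fit with the replicate number as a block (0.0692). Ccnd3 (chromosome 17, 47505051 to 47599689), the D cyclin best known from blood cells, measured 159 and 157 CPM in cKO, against 136 and 151 CPM in control libraries. Its groups did not overlap either, and its log2 fold change of 0.14 (95% interval −0.004 to 0.28) was not called (edgeR adjusted p = 0.299).

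Divided by the length of all annotated exons (GENCODE M21), Ccnd2 and Ccnd1 were the main D cyclins in both genotypes and Ccnd3 the minor one. The per-length level of Ccnd2 was 121 and 158 CPM per kb in cKO libraries, against 92.2 and 93.4 CPM per kb in control libraries. That of Ccnd1 was 115 and 117 CPM per kb against 102 and 97.5 CPM per kb. That of Ccnd3 was 18.1 and 17.8 CPM per kb against 15.5 and 17.2 CPM per kb. The summed D cyclin level was thus 254 and 293 CPM per kb in cKO and 210 and 208 CPM per kb in control libraries, with no overlap. Ccnd2 made up 50.8% ± 4.5 of it in the cKO and 44.4% ± 0.63 in the control (SD, n = 2 each), Ccnd1 42.6% ± 3.8 and 47.7% ± 1.2, and Ccnd3 6.61% ± 0.73 and 7.83% ± 0.59. The order of Ccnd1 and Ccnd2 in the control depended on the length used, with Ccnd1 above Ccnd2 per kb of all exons and below it per kb of the longest transcript (125.5 ± 3.8 and 138 ± 1.3 CPM per kb, SD, n = 2). The raw ratio of Ccnd2 to Ccnd1 counts, in which length cancels between genotypes, was 2.10 and 2.70 in cKO libraries and 1.81 and 1.91 in control libraries. With 2 libraries against 2, an exact two-sided permutation test of such a ratio cannot go below p = 0.333.

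**Figure D2:**
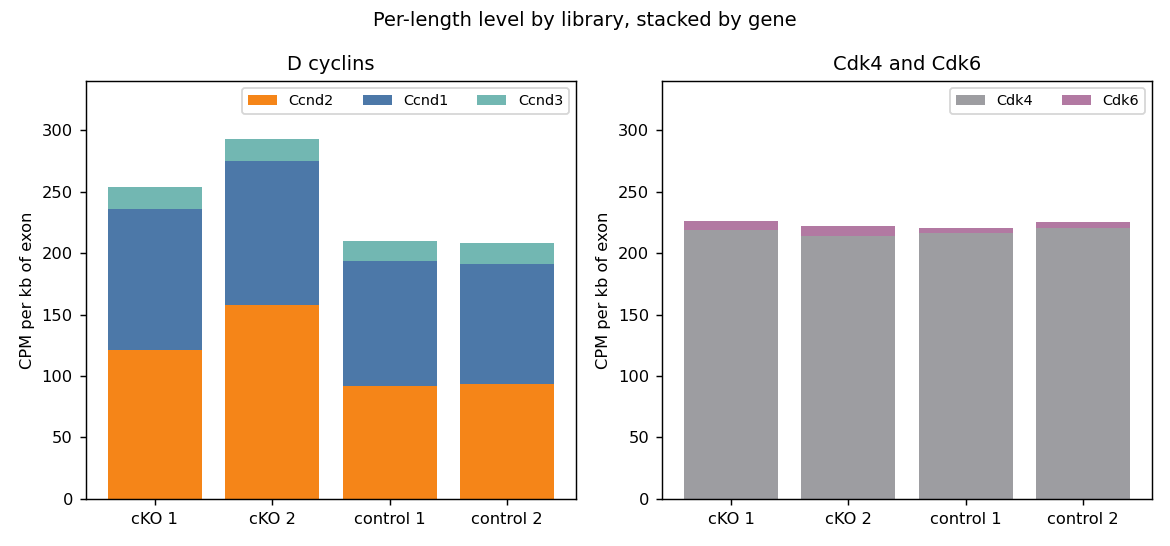
Per-length level (CPM per kb of exon, y axis from 0) of the D cyclins on the left and of Cdk4 and Cdk6 on the right, stacked by gene, in each of the 4 libraries (x axis). The D cyclin bars of the cKO libraries reach 254 and 293 and those of the controls 210 and 208, and Cdk6 is the thin upper part of the kinase bars, 7.59 and 7.56 in cKO libraries against 3.79 and 4.85 in control libraries.

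Of the partner kinases, Cdk6 rose and Cdk4 was not called. Cdk6 (chromosome 5, 3341004 to 3531008) measured 106 and 106 CPM in cKO libraries, against 53.0 and 67.8 CPM in control libraries. The cKO libraries were alike and both lay well above the higher control. The log2 fold change of 0.81 (SE 0.11, 95% interval 0.56 to 1.06, edgeR adjusted p = 0.00922) ranked 330 from the top among the 14235 genes tested. It was called in each of the 12 alternative fits listed at the end and ranged from 0.64 without control replicate 1 to 1.00 without control replicate 2. The ventral midline markers summed to 27.1 and 79.8 CPM in control libraries 1 and 2, and to 14.2 and 75.5 CPM in cKO libraries 1 and 2. Nkx2-1 differed most between the controls (3.42 and 34.0 CPM), and Shh between the cKO libraries (2.47 and 40.6 CPM). The part of these markers in the level of Cdk6 was not tested. Cdk4 (chromosome 10, 127063535 to 127067288) measured 710 and 696 CPM in cKO, against 703 and 715 CPM in control libraries. Its groups overlapped, and its log2 fold change was −0.01 (SE 0.04, adjusted p = 0.915), with a 95% interval from −0.11 to 0.08, or 0.93-fold to 1.06-fold.

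Per kb of exon Cdk4 was the most abundant of the 10 genes, at 216 ± 3.2 CPM per kb in the cKO and 218 ± 2.7 CPM per kb in the control (SD, n = 2 each), and Cdk6 the second lowest, at 7.57 ± 0.021 and 4.32 ± 0.75 CPM per kb. Cdk6 therefore supplied 3.35% and 3.41% of the summed kinase level in cKO libraries and 1.72% and 2.15% in control libraries. The sum of both kinases was 226 and 222 CPM per kb in cKO and 220 and 225 CPM per kb in control libraries and overlapped between the genotypes.

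The windows before the transcription starts of the kinase pair are shown because Cdk6 rose and Cdk4 was not called. They are the 250 bases upstream of a transcription start in RefSeq on GRCm38.p6, both on the plus strand. The start used for Cdk6 lies inside the gene span given above, and that used for Cdk4 is the start of its span. The windows hold 66% (Cdk6) and 64.4% (Cdk4) G and C against a median of 52.4% over 32851 such windows. Capitals mark the E box CACGTG, which Myc-type factors bind, the GC box GGGCGG and the TCF/LEF core CTTTGAA or CTTTGAT, each on either strand.
Cdk6, chr5:3343643-3343892: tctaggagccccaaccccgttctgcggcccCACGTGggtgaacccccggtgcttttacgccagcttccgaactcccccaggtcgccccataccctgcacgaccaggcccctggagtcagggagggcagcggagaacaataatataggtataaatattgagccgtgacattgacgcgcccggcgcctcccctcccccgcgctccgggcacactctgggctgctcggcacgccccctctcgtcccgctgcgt
Cdk4, chr10:127063285-127063534: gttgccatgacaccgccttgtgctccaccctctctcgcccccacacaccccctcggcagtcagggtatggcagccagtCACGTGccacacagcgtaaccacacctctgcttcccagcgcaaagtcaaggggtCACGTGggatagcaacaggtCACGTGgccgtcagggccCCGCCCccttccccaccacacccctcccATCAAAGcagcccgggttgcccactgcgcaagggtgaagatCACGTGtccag
The Cdk6 window holds 1 E box and neither of the other motifs. The Cdk4 window holds 4 E boxes, 1 GC box, read on the opposite strand as CCGCCC, and 1 TCF/LEF core, read as ATCAAAG. Of all windows, 6.02% hold an E box, 32.7% a GC box and 7.48% a TCF/LEF core. An E2F motif (TTTCCCGC, TTTCGCGC, TTTGCCGC or TTTGGCGC) was in 1 of the 9 windows of the 7 matched genes, that of Rbl1, and in 1.86% of all windows. Ccnd1, Ccnd2 and Rb1 had no entry. The letters are a description of these windows and the E box was added to the search after the sequences were seen.

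None of the 3 inhibitor genes was called, and each had its highest level in control library 1. Cdkn1b (chromosome 6, 134920401 to 134925525) measured 94.1 and 96.8 CPM in cKO, against 110 and 94.0 CPM in control libraries. The groups overlapped (log2 fold change −0.09, 95% interval −0.27 to 0.09, edgeR adjusted p = 0.618). Cdkn2c (chromosome 4, 109660876 to 109666756), which encodes p18, was the lowest of the 10 genes, with 113 and 95 counts in cKO and 170 and 107 counts in control libraries. The difference, −0.41 on the log2 scale with an SE of 0.26 (edgeR adjusted p = 0.488), rested on control library 1: it was −0.02 without that library and −0.71 without control replicate 2. Its 95% interval, from −1.02 to 0.21, leaves a wide range of sizes at this depth. Cdkn2d (chromosome 9, 21288459 to 21291421), which encodes p19, measured 15.4 and 15.7 CPM in cKO, against 18.9 and 16.1 CPM in control libraries. Its cKO libraries lay just below both controls, and the log2 fold change of −0.17 was not called (SE 0.13, edgeR adjusted p = 0.572).

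The neuron markers in sum, like each of the 3 inhibitor genes, were highest in control library 1. Taken singly, Stmn2, Mapt, Nefl and Nefm were highest in control library 2, and Rbfox3 in cKO library 2. The 14 neuron genes had a summed level of 648 and 683 CPM in cKO libraries 1 and 2, against 1157 and 941 CPM in control libraries 1 and 2. Of the 14, 5 fell and 0 rose (edgeR; 11 and 0 at an unadjusted p under 0.05), with a median log2 fold change of −0.65. Over all genes tested, edgeR called 2.13% lower and 1.57% higher. In such bulk tissue, fewer neurons and less RNA per neuron cannot be told apart. The part of neuron content in the levels of the D cyclins, Cdk6 or the inhibitors was not tested. Erythroid genes were lower as well, at 1895 and 1808 CPM in sum in the cKO against 2852 and 3071 CPM in the control. In all 4 libraries 4 adult globin genes had a count of 0, and whether their RNA was absent or not counted was not tested. With the erythroid genes removed the log2 fold changes of Cdk6, Ccnd2 and Ccnd1 were 0.81, 0.59 and 0.22. The 12 endothelial genes summed to 326 and 329 CPM in the cKO and 377 and 368 CPM in the control, and the 10 microglia and macrophage genes to 47.7 and 39.3 CPM against 53.2 and 50.5 CPM.

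The pocket protein genes were not called. Rb1 (chromosome 14, 73192858 to 73325951), the retinoblastoma gene, measured 44.5 and 47.4 CPM in cKO, against 51.2 and 52.8 CPM in control libraries, and its groups did not overlap. The log2 fold change was −0.18 (SE 0.07, 95% interval −0.35 to −0.01), with an unadjusted p of 0.0417 and an edgeR adjusted p of 0.265. Rbl1 (chromosome 2, 157145893 to 157204534), which encodes p107, measured 99.6 and 95.3 CPM in cKO, against 105 and 91.4 CPM in control libraries. Its groups overlapped (log2 fold change −0.01, 95% interval −0.19 to 0.17, adjusted p = 0.968). Per kb of exon Rbl1 stood above Rb1 in both genotypes, at 16.3 ± 0.51 and 7.64 ± 0.35 CPM per kb in the cKO and 16.4 ± 1.6 and 8.64 ± 0.19 CPM per kb in the control (SD, n = 2 each).

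**Figure D3:**
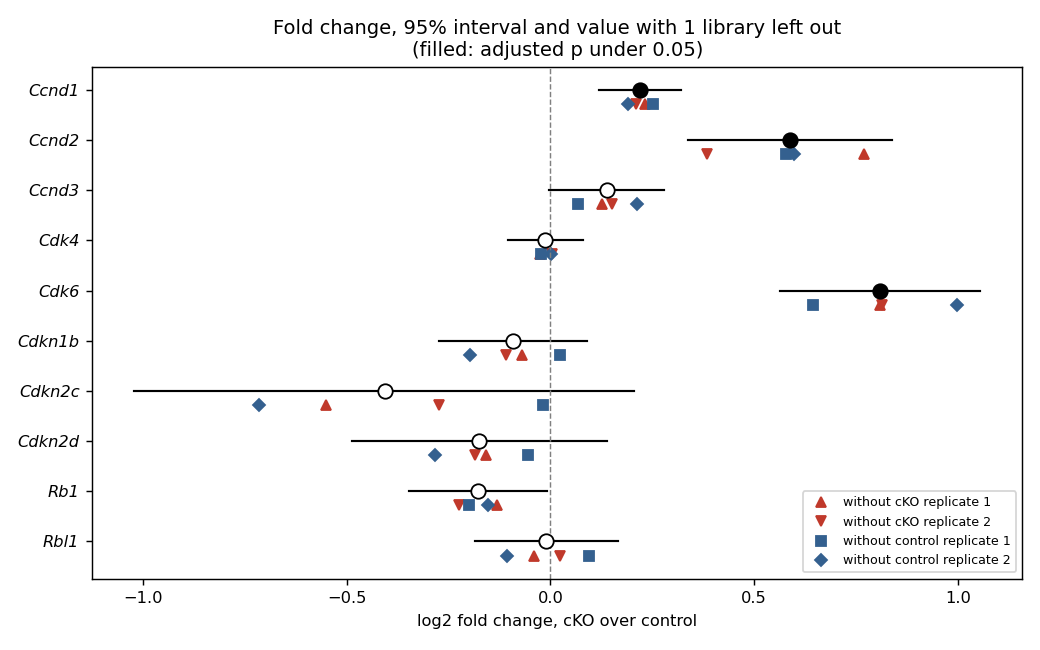
Log2 fold change of cKO over control (x axis) for the 10 genes (y axis), with large circles for the fit of all 4 libraries, filled where the adjusted p was under 0.05, bars for the 95% interval and small symbols for the value with 1 library left out. Ccnd1, Ccnd2 and Cdk6 lie to the right of 0 in every one of these fits, and Cdkn2c has the widest interval, from −1.02 to 0.21.

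Per kb of all exons, the order over all 4 libraries was Cdk4, Ccnd2, Ccnd1, Cdkn1b, Ccnd3, Rbl1, Cdkn2d, Rb1, Cdk6 and Cdkn2c. In the cKO Cdkn1b (20.7 and 21.3 CPM per kb) stood above Ccnd3 (18.1 and 17.8), and Ccnd3 above Rbl1 (16.6 and 15.9). In the control Cdkn1b (24.1 and 20.7 CPM per kb) stood above Rbl1 (17.5 and 15.2) and Ccnd3 (15.5 and 17.2), and these last 2 overlapped. In the cKO Cdk6 (7.59 and 7.56 CPM per kb) lay within the range of Rb1 (7.39 and 7.89), whereas in the control it lay below it (3.79 and 4.85 against 8.51 and 8.78) and overlapped with Cdkn2c (3.80 and 2.35). With transcript lengths in place of all exons, Ccnd3 stood above Cdkn1b.

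The wider G1 to S machinery was called at about the share of all genes. Of 26 tested partner genes, which cover the E cyclins, Cdk2, the other inhibitors, E2F factors and their dimer partners and the Cdk-activating kinase, 1 fell and 0 rose (edgeR; at an unadjusted p under 0.05, 3 fell and 3 rose), with a median log2 fold change of −0.001, where 3.7% of all genes tested were called. The gene that fell was Tfdp2, which encodes a dimer partner of E2F factors. It measured 115.5 and 112.9 CPM in cKO, against 149.4 and 167.8 CPM in control libraries with no overlap between the groups. The log2 fold change was −0.47 (edgeR adjusted p = 0.0118, SE 0.07), and leaving out cKO replicate 2 ended the call (0.0707). Its homologue Tfdp1 was at 304 and 311 CPM against 303 and 308 CPM. The E cyclin Ccne1 was at 71.7 and 75.1 CPM against 68.8 and 67.0 CPM (log2 fold change 0.11, adjusted p = 0.405), and the p53-inducible inhibitor gene Cdkn1a at 15.6 and 15.1 CPM against 11.9 and 7.30 CPM (0.68, SE 0.22, adjusted p = 0.175). Those 3 genes were picked after their values were seen. The INK4 genes Cdkn2a and Cdkn2b had at most 2 counts in any library and were not tested, so that Cdkn2c and Cdkn2d were the INK4 genes detected here.

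The genes downstream of the switch differed little in level between the genotypes. By edgeR 3.7% of all genes tested were called, so a count of 0 in lists this short is near that share. No share over all genes is given here for the counts at an unadjusted p. Of 26 E2F target genes of DNA replication 0 were called in either direction by edgeR, the DESeq2 Wald test or limma-voom (3 higher and 0 lower at an unadjusted p under 0.05), with log2 fold changes from −0.11 to 0.17 and a median of 0.03. Of these target genes 19 were above 0 and 7 below. The smallest p-values were those of Cdt1, a replication licensing factor (102 and 102 CPM in cKO, 85.4 and 95.3 CPM in control libraries, 0.17, adjusted p = 0.234), and the polymerase gene Pola1 (0.13, adjusted p = 0.263). Of 17 mitosis genes 0 were called by any of these tools, and 0 at an unadjusted p under 0.05, with log2 fold changes from −0.09 to 0.10. Mki67, the proliferation marker, measured 950 and 960 CPM in cKO, against 1005 and 1028 CPM in control libraries (−0.09, adjusted p = 0.285), and Cdk1, the mitotic kinase gene, 179 and 184 CPM against 168 and 171 CPM (0.10, adjusted p = 0.354). Of the 7 genes of the DREAM and MuvB complexes, the assemblies in which pocket proteins act and their Mybl2 and Foxm1 partners, 0 were called by these tools, 2 were lower and 0 higher at an unadjusted p under 0.05, and the median was −0.13. Those 2 were Foxm1 (−0.13, adjusted p = 0.194) and Lin54 (−0.18, adjusted p = 0.275). All 7 genes of this list had log2 fold changes below 0, from −0.21 to −0.001. Both cKO libraries lay below both controls for 4 of the 7, against 24% of all genes tested. Of 10 genes of cyclin D phosphorylation, folding and turnover 0 were called by these tools, with 0 higher and 2 lower at an unadjusted p under 0.05. Those 2 were the kinase genes Dyrk1b (17.7 and 17.6 CPM against 22.8 and 22.8 CPM, −0.37, adjusted p = 0.13) and Gsk3b (−0.15, adjusted p = 0.206), whose products are known to phosphorylate cyclin D1.

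The mitogen response list held calls in both directions. Of 24 tested genes of Wnt, FGF and Hedgehog response and of Myc and Foxo factors, 8 rose and 1 fell (edgeR; 9 and 4 at an unadjusted p under 0.05), with 12 genes above 0 and 12 below and a median log2 fold change of 0.06, where 1.57% of all genes tested were called higher and 2.13% lower. Genes below 0 that were not called, picked here after their values were seen, included the Hedgehog target Ptch1 (log2 fold change −0.42), the Wnt-pathway factor gene Tcf7l1 (−0.39) and the immediate early gene Egr1 (−0.80). The smallest p-values among them were those of Etv5 and Axin2, targets of FGF and Wnt signalling that were 2.32-fold (edgeR adjusted p = 0.00086) and 1.43-fold (0.00375) higher, and of the Wnt-pathway factor genes Tcf7, 1.78-fold higher (0.00378), and Tcf7l2, the gene that fell (log2 fold change −1.30, 0.00034). Myc, whose product is known to act on Ccnd2 and Cdk4 transcription, was also among the genes that rose and was picked after its value was seen. It measured 29.5 and 25.6 CPM in cKO, against 11.8 and 17.4 CPM in control libraries (log2 fold change 0.91, SE 0.19, edgeR adjusted p = 0.0436). Of these targets, Ccnd2 rose and Cdk4 was not called. The part of Myc and the other genes of this list in the levels of the D cyclins, Cdk4 or Cdk6 was not tested. Mycn, the Myc gene of neural progenitors, was at 161 and 172 CPM against 149 and 155 CPM (0.13, adjusted p = 0.287).

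**Figure D4:**
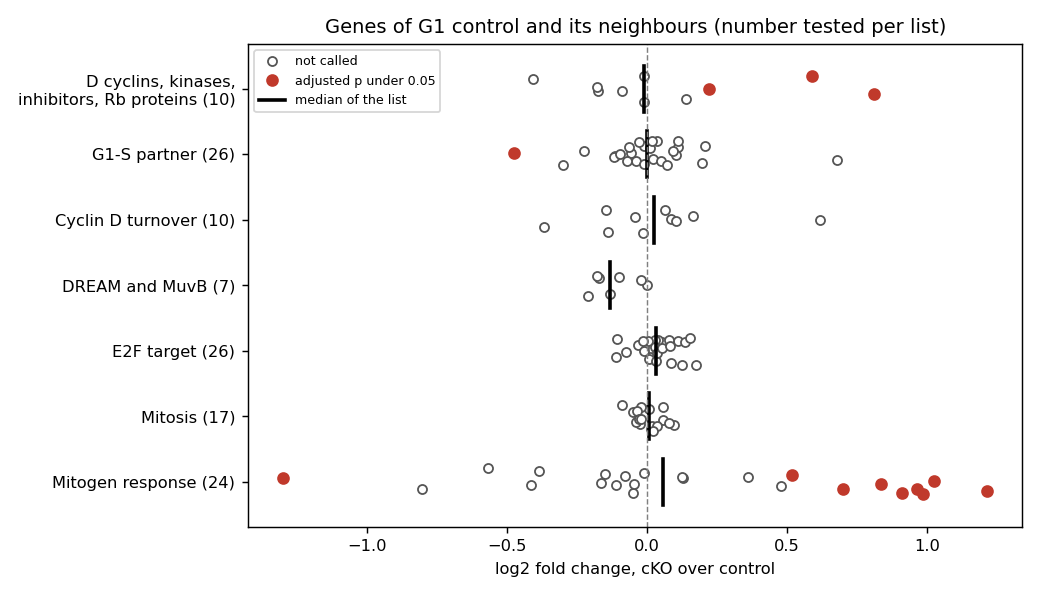
Log2 fold change of cKO over control (x axis) for each tested gene of the 10 described here and of 6 related lists (y axis, with the number tested), with filled points for an adjusted p under 0.05 and a bar at the median of each list. The E2F target and mitosis genes lie between −0.11 and 0.17, while Ccnd1, Ccnd2 and Cdk6 and 8 mitogen response genes lie to the right as called increases.

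Some exon bases of these genes are shared with genes on the opposite strand in GENCODE M21. The recorded counting command sets neither a strand nor an overlap option. Counted reads therefore cannot be assigned to a strand, and reads over exons of several counted genes are by default counted for none of them. Ccnd1 shares 1100 exon bases with Oraov1 (LTO1 in that annotation), Ccnd2 368 bases with 9330179D12Rik and 372 bases with Gm43126, Cdk6 368 bases with Gm17590, Cdk4 641 bases with Tspan31, Ccnd3 361 bases with Bysl, and Rb1 408 bases with Lpar6 and 488 bases with Rcbtb2. Gm43126 and Gm17590 were not among the genes counted, so reads on bases shared with them can count for Ccnd2 and Cdk6 from either strand. Oraov1 measured 17.2 and 19.3 CPM in cKO, against 22.7 and 20.0 CPM in control libraries, far below Ccnd1, and was not called (log2 fold change −0.22, adjusted p = 0.425).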

How the data were processed

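PolyA RNA of micro-dissected forebrain was sequenced in 2 cKO and 2 control libraries. Per the file headers, the deposited raw counts of paired-end reads were summed over exons per gene, with featureCounts 2.0.1 and a UCSC RefSeq gene model for mm10 (GRCm38). The submitters' processing notes also name HISAT2 and DESeq2, with no version that could be used here. A second file that the authors deposited holds their own comparison as log2 fold changes and p-values, a Wald score that was not used, and normalized counts (a signal), which equal the raw count over 1 constant per library. Its values are printed only where that table is named. There were 0 columns of per-sample values without a sample.

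Genes were filtered by filterByExpr (minimum count 10), scaled by TMM and tested with edgeR 4.0.16 (glmQLFit and glmQLFTest, R 4.3.3, no covariate), with Benjamini-Hochberg adjustment over 14235 genes and a call at an adjusted p under 0.05. The SE is the log2 fold change over the root of F. The 95% intervals use the total degrees of freedom of that test, the residual ones plus those borrowed across genes. Replicates differed by more than sampling noise (chi-square per degree of freedom 4.07 for the cKO pair and 4.78 for the control pair), and the common biological coefficient of variation was 0.0785. The fits were also run on counts simulated with the dispersion trend of these data, and the outcome is not given here. Such counts cannot show how spread particular to a gene is handled. Lengths are the union of GENCODE M21 exons, gene coordinates are those of RefSeq on GRCm38, and promoter windows are from RefSeq on GRCm38.p6. The 12 alternative fits used upper-quartile or DESeq2 scaling, all genes or those averaging 5 CPM or more, DESeq2 1.42.0, limma-voom (limma 3.58.1), a block for the replicate number, 3 libraries in place of 4 (4 fits) or a table without erythroid genes. The 10 genes, the lists and the rule for named genes (up to 4 called genes with the smallest p per list, or, with none called, the 2 of smallest p) were chosen with earlier results of these data known. Of the list symbols 1 was not in the count table. Plots were drawn with matplotlib 3.10.9.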

Additional observations from a re-analysis of the deposited data

How the results depend on the processing

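In all 12 alternative fits Cdk6 was called higher, and no sign change occurred for Ccnd1, Ccnd2, Ccnd3, Cdkn2c, Cdkn2d, Rb1 or Chd7. Leaving out 1 library gave 1 to 2 of the 10 genes called higher (1 without control replicate 1, where Ccnd1 and Ccnd2 were lost), 80 to 351 genes called higher and 131 to 418 lower over the whole table, 0 to 1 G1 to S partner genes higher and 0 to 1 lower, and 5 to 7 mitogen response genes higher and 1 to 2 lower. A fit that leaves 1 library in a group assumes that it varies like those of the other group. With the replicate block, 137 genes were called higher and 211 lower, and 2 of the 10 genes and 6 mitogen response genes were higher. The replicate numbers were not taken as pairs because no label says that libraries were paired. Deviations of replicates of the same number had a correlation of −0.0531 across all genes tested. A value over so many genes cannot exclude an effect shared by some of them. The DESeq2 Wald test called 2 mitogen response genes lower. Values near 0 changed sign: Cdk4 was 0.002 with upper-quartile factors and −0.026 to 0.004 without 1 library, Rbl1 0.004 and −0.106 to 0.094, and Cdkn1b −0.197 to 0.023 without 1 library. Upper-quartile factors moved the median of all genes by about 0.01 (to 0.0137).

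The per-length shares depended on the length. With the longest transcript, in cKO and control, Ccnd1 made up 37.2% and 41.8% of the D cyclin level, Ccnd2 52.3% and 45.9%, Ccnd3 10.4% and 12.4%, and Cdk6 2.61% and 1.49% of the kinase level. With the longest transcript matched to RefSeq, an alternative chosen after seeing the data, they were 34.3% and 37.9%, 48.2% and 41.6%, 17.5% and 20.5%, and 2.61% and 1.49%. In each case the Ccnd2 and Cdk6 shares were higher in the cKO. Depth limited Cdkn2c most, with 95 to 170 counts per library.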

Other observations

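At the Ccnd2 locus, the opposite-strand transcript 9330179D12Rik, a long non-coding RNA in RefSeq, had 11 and 13 counts in cKO libraries, against 1 and 4 counts in control libraries (log2 fold change 2.22, SE 0.73, edgeR adjusted p = 0.175). It was not called. It shares 368 exon bases with Ccnd2, and as the counting set no strand option, its counted reads cannot be assigned to a strand. Lpar6, a lysophosphatidic acid receptor gene on the opposite strand within Rb1, measured 41.0 and 44.8 CPM in cKO, against 33.4 and 36.0 CPM in control libraries (log2 fold change 0.31, SE 0.09, adjusted p = 0.121), while Rb1 itself had the opposite sign (−0.18). Neither difference passed the threshold.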
